A study of Arabidopsis thaliana with 6 samples.

Results

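Arabidopsis thaliana root explants that carry ARR1 behind the 35S promoter (Pro35SARR1) were set against explants labelled arr1, across all genes. The comparison takes 4 of the 6 RNA-seq libraries of the study, 2 of Pro35SARR1 and 2 labelled arr1, chosen by the genotype in their labels, and pairs them by replicate number. The other 2 libraries are wild type (WT). They have a weight of 0 in the difference and enter it only through steps shared by all libraries. All explants, whatever their genotype, spent 5 days on a callus-inducing medium (CIM) and then 7 days on a shoot-inducing medium (SIM). The hormones of SIM were N6-(2-isopentenyl)adenine, a cytokinin, at 1 mg/L and IAA, an auxin, at 0.15 mg/L. Cultures stood in continuous light at 22 °C, and explants were taken as new shoot meristems form. The labels describe arr1 as a single mutant and give no allele, ecotype, plant age or number of transgenic lines, and the series text calls the overexpressing genotype AOE. The 35S promoter is active in most plant tissues, so the transgene is not limited to cells that normally use ARR1.

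Cytokinin is perceived by membrane histidine kinases, which pass a phosphate through histidine phosphotransfer proteins to nuclear response regulators. Type-B response regulators such as ARR1 are the transcription factors at the end of this relay, and type-A response regulators are among their direct targets and feed back to dampen the signal. In explant culture a high ratio of cytokinin to auxin makes callus form shoots, and WUS, the gene of the stem cell organizer, must be switched on for a shoot meristem to form.

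ARR1 itself (AT3G16857; chromosome 3, 5755821 to 5759443, as the deposited table places it) stood at 1725 and 1909 CPM in the Pro35SARR1 libraries, against 61.2 and 58.6 CPM in those labelled arr1 and 61.3 and 59.8 CPM in WT, where CPM is the count scaled to library size with TMM factors. The log2 fold change was 4.92 (SE 0.1002, edgeR quasi-likelihood test with Benjamini-Hochberg adjusted p = 0.000136). Its level told the Pro35SARR1 libraries from the others but did not tell those labelled arr1 from WT. Which of the other libraries are arr1 and which are WT therefore rests on the labels alone. Total estimated counts ran from 8193313 to 9381532 over the 6 libraries. At this depth 3 counts in a library correspond on average to 0.338 CPM in Pro35SARR1 and 0.343 CPM in the libraries labelled arr1, a floor that covers counting error only. The labels do not say whether replicates were separate cultures, so a p-value here covers only how these libraries spread, which can be technical variation.

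Of 18083 genes tested, 2084 were higher and 1595 lower in Pro35SARR1 than in the libraries labelled arr1, at an adjusted p under 0.05 in a fit with the replicate number as a block. That is 20.3% of the genes tested, 11.5% higher and 8.82% lower, and these shares are the background for every gene list that follows. At least 2-fold changes made up 777 of the higher and 654 of the lower calls, and at least 4-fold changes 346 and 267. The median log2 fold change over all tested genes was −0.02. The libraries of the genotypes did not overlap for 2021 of the higher and 1528 of the lower calls, against 58.9% of all tested genes. WT lay between the genotypes for 1448 of the higher genes, at or above both for 513 and at or below both for 123. Of the lower genes it lay between for 1153, at or below both for 362 and at or above both for 80. Genes picked for a gap between the genotypes leave room for WT in between, and no share over all tested genes is given beside these counts. Without the block 739 genes were higher and 431 lower, all of them among the calls with it, which is 6.47% of the genes tested, 4.09% higher and 2.38% lower. The 4 libraries alone, with the block, gave 1989 higher and 1478 lower of 17814 genes (19.5%, made up of 11.2% higher and 8.30% lower). The calls numbered 394 higher and 235 lower without Pro35SARR1 replicate 1, 397 and 199 without Pro35SARR1 replicate 2, 1601 and 1162 without arr1 replicate 1, and 1734 and 1225 without arr1 replicate 2. In all, 231 higher and 110 lower genes were called with the block, without it and with each of the 6 libraries left out in turn. Scaling by library totals alone moved the median to −0.13 and gave 1638 higher and 2529 lower, so that 39.3% of the calls were higher, against 56.6% with TMM scaling.

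**Figure D1:**
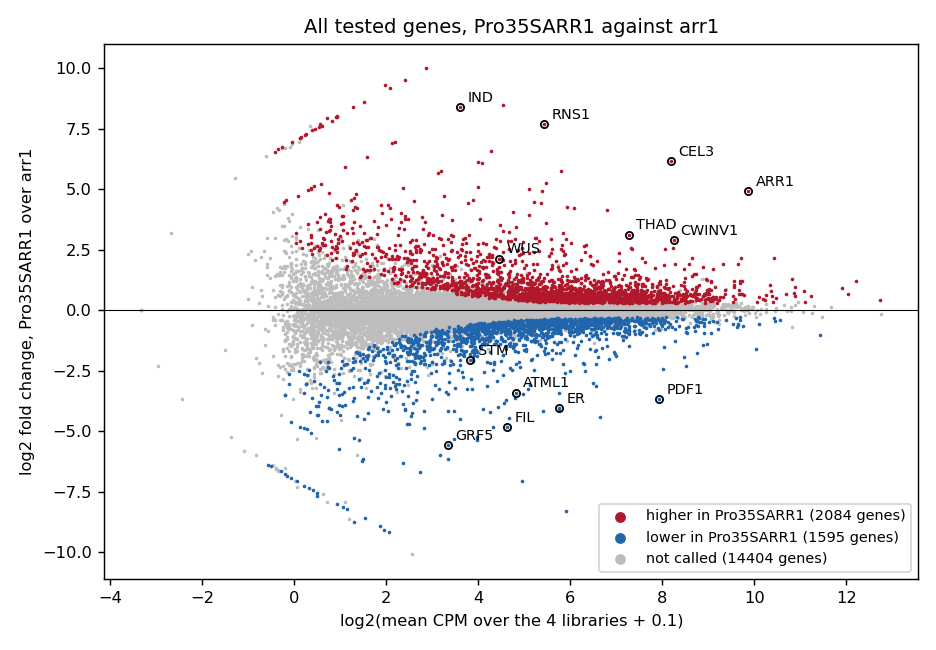
Each point is 1 of the 18083 tested genes, with the log2 of its mean CPM plus 0.1 over the 4 libraries on the horizontal axis and its fitted log2 fold change, Pro35SARR1 over arr1, on the vertical axis. The 2084 genes called higher are red, the 1595 called lower blue and the rest grey, with 13 genes named in the text ringed. The straight diagonal rows at the left edge are genes with no or few counts in 1 genotype, whose fitted fold depends on the prior count.

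Of 10 type-A response regulators, 5 rose in Pro35SARR1 and 0 fell, with a median log2 fold change of 0.92. The risers were ARR16, ARR5, ARR4, ARR6 and ARR17. Their promoters, the 250 bases before the annotated gene start in the RefSeq TAIR10.1 genome, are printed because these are the textbook targets of type-B regulators. Capitals mark the letters AGATT, the related letters AGATC and the variant letters GGATT on either strand, which are short forms of the site that type-B regulators are known to bind.
ARR16 (chr2:16969423-16969672, plus strand): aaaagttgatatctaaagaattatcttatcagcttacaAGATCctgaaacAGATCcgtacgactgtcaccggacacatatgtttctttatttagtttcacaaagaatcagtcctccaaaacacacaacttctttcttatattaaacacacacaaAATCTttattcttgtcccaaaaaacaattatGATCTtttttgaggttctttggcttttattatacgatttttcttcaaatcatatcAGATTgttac
ARR5 (chr3:17760951-17761200, minus strand): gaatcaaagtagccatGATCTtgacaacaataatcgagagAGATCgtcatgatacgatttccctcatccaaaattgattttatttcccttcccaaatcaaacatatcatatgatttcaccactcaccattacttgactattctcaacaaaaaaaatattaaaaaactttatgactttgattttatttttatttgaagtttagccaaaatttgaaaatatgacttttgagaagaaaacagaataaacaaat
ARR4 (chr1:3444361-3444610, minus strand): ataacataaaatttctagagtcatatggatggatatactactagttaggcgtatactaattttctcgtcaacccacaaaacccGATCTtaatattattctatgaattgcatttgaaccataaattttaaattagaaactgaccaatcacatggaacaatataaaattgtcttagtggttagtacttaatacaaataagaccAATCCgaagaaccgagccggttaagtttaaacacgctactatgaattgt
ARR6 (chr5:25254319-25254568, minus strand): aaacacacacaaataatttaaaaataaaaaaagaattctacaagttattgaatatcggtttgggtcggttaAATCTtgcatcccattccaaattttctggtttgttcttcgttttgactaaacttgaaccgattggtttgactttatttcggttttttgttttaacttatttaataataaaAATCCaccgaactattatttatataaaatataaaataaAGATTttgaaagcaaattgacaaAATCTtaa
ARR17 (chr3:20905014-20905263, plus strand): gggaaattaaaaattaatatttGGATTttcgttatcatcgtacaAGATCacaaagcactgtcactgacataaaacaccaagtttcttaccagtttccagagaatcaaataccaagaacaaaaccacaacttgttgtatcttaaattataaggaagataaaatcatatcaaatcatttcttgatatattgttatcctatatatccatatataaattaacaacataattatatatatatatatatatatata
The motif AGATT begins like the second motif and ends like the third, and AGATC can overlap its own match on the other strand. ARR16 held 5 matches, ARR6 4, and ARR5, ARR4 and ARR17 2 each. At least 1 match was present in 82.9% of 2069 promoters of higher genes, 81.2% of 1571 promoters of lower genes and 82.5% of the 17853 promoters of all tested genes. The mean number of matches was 1.89, 1.80 and 1.87 in these sets, so the letters were about as frequent in front of genes that changed as in front of all genes.

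ARR16 stood at 95.8 and 73.0 CPM in the Pro35SARR1 libraries and 14.6 and 7.86 CPM in those labelled arr1 (log2 fold change 2.96 with SE 0.185, adjusted p = 0.00122). ARR5 had 202 and 196 CPM in Pro35SARR1, against 84.3 and 78.9 CPM in the libraries labelled arr1 (log2 fold change 1.29 with SE 0.0898, adjusted p = 0.0015). ARR4, the most abundant of the family by counts here, had 469.9 and 565 CPM in the Pro35SARR1 libraries and 212 and 196 CPM in those labelled arr1 (log2 fold change 1.33 with SE 0.117, adjusted p = 0.00252). In each of these the lower Pro35SARR1 library exceeded the higher library labelled arr1. ARR6 followed the same order with 118 and 98.7 CPM in the Pro35SARR1 libraries and 49.4 and 35.9 CPM in those labelled arr1 (log2 fold change 1.35 with SE 0.148, adjusted p = 0.00446). ARR17 reached 5.58 and 3.80 CPM in Pro35SARR1 and 0 counts in both libraries labelled arr1, so it was at least 13.7-fold higher against a floor of 3 counts per library (adjusted p = 0.0111). Mean WT levels of ARR16 (libraries at 35.2 and 17.2 CPM), ARR5 (145 and 158 CPM), ARR4 (419 and 501 CPM) and ARR6 (72.7 and 78.9 CPM) lay between the genotypes. Not every type-A gene followed. ARR7, which acts in the shoot meristem, had 45.1 and 56.0 CPM in the Pro35SARR1 libraries and 60.5 and 66.8 CPM in those labelled arr1 (log2 fold change −0.34 with SE 0.113, adjusted p = 0.0853), with its libraries in the opposite order, and it passed as lower when libraries were scaled by totals alone (log2 fold change −0.45, adjusted p = 0.0350). ARR15 had 11.7 and 22.9 CPM in the Pro35SARR1 libraries and 11.0 and 11.1 CPM in those labelled arr1 (log2 fold change 0.56 with SE 0.322, adjusted p = 0.269): its libraries did not overlap, yet it passed only without arr1 replicate 1 (log2 fold change 1.13, adjusted p = 0.0394). The 5 calls numbered 4 without Pro35SARR1 replicate 1, 4 without its replicate 2, 5 without arr1 replicate 1, 5 without its replicate 2 and 5 without the block.

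Further up the relay the changes ran in both directions. Among receptors and phosphotransfer proteins 2 of 8 rose and 3 fell. AHP1, a phosphotransfer protein, had 168 and 109 CPM in the Pro35SARR1 libraries and 69.6 and 60.8 CPM in those labelled arr1 (log2 fold change 1.05 with SE 0.131, adjusted p = 0.00606), and AHP2 of the same family rose as well (log2 fold change 0.58, adjusted p = 0.0253). The receptor genes AHK2 (log2 fold change −1.04, adjusted p = 0.00523) and AHK3 (log2 fold change −0.59, adjusted p = 0.0241) fell, as did AHP6, a pseudophosphotransfer protein that inhibits the relay (log2 fold change −2.90, adjusted p = 0.0388). The receptor gene AHK4 was at a log2 fold change of 0.29 (adjusted p = 0.0522). These 5 calls numbered 0 without Pro35SARR1 replicate 1, 1 without its replicate 2, 3 without arr1 replicate 1, 4 without its replicate 2 and 0 without the block. Of the type-B regulators other than ARR1, ARR11 fell (log2 fold change −1.69, adjusted p = 0.0478). ARR10 had 40.8 and 30.8 CPM in the Pro35SARR1 libraries and 44.9 and 36.1 CPM in those labelled arr1 (log2 fold change −0.18 with SE 0.0953, adjusted p = 0.227), and ARR12 had 66.1 and 59.4 CPM in Pro35SARR1, against 59.7 and 53.2 CPM in the libraries labelled arr1 (log2 fold change 0.15 with SE 0.0852, adjusted p = 0.253), so both overlapped between the genotypes. ARR2 had 15.2 and 15.5 CPM in the Pro35SARR1 libraries and 22.1 and 15.9 CPM in those labelled arr1 (log2 fold change −0.29 with SE 0.171, adjusted p = 0.282), with libraries that did not overlap and no call. ARR11 was not called when any 1 of the 4 libraries compared was left out.

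Of 21 tested genes of cytokinin synthesis, breakdown and conjugation, 4 rose and 4 fell. CYP735A1, which makes trans-zeatin forms, rose to 16.8 and 13.8 CPM in Pro35SARR1, against 2.87 and 1.25 CPM in the libraries labelled arr1 (log2 fold change 2.97 with SE 0.347, adjusted p = 0.0052). The cytokinin oxidases, which degrade the hormone, split: CKX5 (log2 fold change 0.77, adjusted p = 0.0067), CKX3 (log2 fold change 1.48, adjusted p = 0.00926) and CKX4 (log2 fold change 2.34, adjusted p = 0.0134) rose and CKX6 (log2 fold change −1.15, adjusted p = 0.0287) fell. CKX4 stood at 15.8 and 15.6 CPM in the Pro35SARR1 libraries and 2.298 and 3.87 CPM in those labelled arr1. All 3 LOG genes that were called, which release active cytokinin from its nucleotide, fell: LOG1 (log2 fold change −2.41, adjusted p = 0.0126), LOG3 (log2 fold change −1.74, adjusted p = 0.0382) and LOG5 (log2 fold change −1.78, adjusted p = 0.0388). The 8 calls numbered 1 without Pro35SARR1 replicate 1, 1 without its replicate 2, 5 without arr1 replicate 1, 6 without its replicate 2 and 3 without the block. Of 6 cytokinin response factors, CRF2 fell (log2 fold change −1.39 with SE 0.148, adjusted p = 0.00407), a call lost without Pro35SARR1 replicate 1.

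In the shoot meristem list WUS rose while STM, CLV1 and BP fell. WUS stood at 41.1 and 29.4 CPM in the Pro35SARR1 libraries and 10.4 and 6.04 CPM in those labelled arr1 (log2 fold change 2.13 with SE 0.209, adjusted p = 0.00341), and WT stood at 13.9 and 5.96 CPM, so both Pro35SARR1 libraries lay above the other 4. STM, a homeobox gene that keeps meristem cells undifferentiated, had 4.67 and 6.26 CPM in Pro35SARR1, against 25.9 and 19.7 CPM in the libraries labelled arr1 (log2 fold change −2.07 with SE 0.305, adjusted p = 0.00945). The lower library labelled arr1 was well above both Pro35SARR1 libraries, and WT (3.16 and 5.40 CPM) lay close to Pro35SARR1. CLV1, the receptor kinase that restricts WUS, had 13.9 and 18.8 CPM in the Pro35SARR1 libraries and 53.6 and 44.2 CPM in those labelled arr1 (log2 fold change −1.59 with SE 0.190, adjusted p = 0.00551), and the homeobox gene BP fell too (log2 fold change −1.27 with SE 0.193, adjusted p = 0.0104). In the whole list of 20, 2 rose and 6 fell, with a median log2 fold change of −0.39. The other riser was RAP2.6L, an AP2-type factor of shoot regeneration (log2 fold change 0.73, adjusted p = 0.028), and WIND1, CUC3 and CRN also fell. CUC3, of organ boundaries, had 0.228 and 0 CPM in the Pro35SARR1 libraries and 5.28 and 4.78 CPM in those labelled arr1, a count ratio of arr1 over Pro35SARR1 of 44.6 (95% counting interval 12.0 to 374). Here and below, a counting interval pools the libraries of each genotype. It covers counting error only and leaves out the spread between libraries, so it is too narrow as a range for the genotypes. WUS kept its call with each library left out but not without the block (adjusted p = 0.0594). The 8 calls numbered 2 without Pro35SARR1 replicate 1, 3 without its replicate 2, 6 without arr1 replicate 1, 8 without its replicate 2 and 3 without the block. CLV3, the peptide ligand of CLV1, reached no more than 4.3 estimated counts in a library and did not pass the filter.

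Among 15 tested genes of leaf polarity 6 fell and 1 rose, with a median log2 fold change of −1.17. All 4 YABBY genes on the list, which mark the lower leaf side, fell. FIL had 1.14 and 2.23 CPM in Pro35SARR1, against 42.0 and 53.5 CPM in the libraries labelled arr1 (log2 fold change −4.84 with SE 0.240, adjusted p = 0.000972). YAB3 had 0.683 and 0.894 CPM in the Pro35SARR1 libraries and 26.4 and 34.5 CPM in those labelled arr1 (log2 fold change −5.25 with SE 0.251, adjusted p = 0.000838), and YAB2 (log2 fold change −3.55, adjusted p = 0.0177) and YAB5 (log2 fold change −4.38, adjusted p = 0.013) were close to the floor in Pro35SARR1. WT had 0.789 and 1.80 CPM of FIL and 0.451 and 0.899 CPM of YAB3, near the Pro35SARR1 levels and far under those of the libraries labelled arr1. AS1, a MYB factor of leaf founder cells, fell (log2 fold change −1.20 with SE 0.174, adjusted p = 0.00915), as did KAN1 (log2 fold change −1.66, adjusted p = 0.0236). PHV, of the upper leaf side, rose (log2 fold change 0.46, adjusted p = 0.0171). The 7 calls numbered 2 without Pro35SARR1 replicate 1, 2 without its replicate 2, 5 without arr1 replicate 1, 6 without its replicate 2 and 4 without the block.

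Growth-regulating factors (GRFs), with their coactivator AN3, promote cell proliferation in leaves, and 8 of 10 tested members of this list fell and 0 rose. The median log2 fold change was −2.41. GRF3 had 9.67 and 10.05 CPM in the Pro35SARR1 libraries and 47.2 and 52.8 CPM in those labelled arr1 (log2 fold change −2.34 with SE 0.143, adjusted p = 0.00118). GRF5 had 0.455 and 0.335 CPM in Pro35SARR1, against 21.1 and 18.22 CPM in the libraries labelled arr1 (log2 fold change −5.59 with SE 0.583, adjusted p = 0.00392). AN3 had 17.9 and 10.6 CPM in the Pro35SARR1 libraries and 71.9 and 43.4 CPM in those labelled arr1 (log2 fold change −2.02 with SE 0.145, adjusted p = 0.00158). In all 3 the libraries were far apart, and WT stood at 10.4 and 13.8 CPM for GRF3, 0 and 0.450 CPM for GRF5 and 10.8 and 8.66 CPM for AN3, on the Pro35SARR1 side. GRF1, GRF2, GRF4, GRF7 and GRF9 fell by log2 fold changes between −4.10 and −1.40. The other coactivator genes, GIF2 and GIF3, had log2 fold changes of −0.24 and −0.53 (adjusted p = 0.125 and 0.398). These 8 calls numbered 6 without Pro35SARR1 replicate 1, 3 without its replicate 2, 5 without arr1 replicate 1, 8 without its replicate 2 and 8 without the block.

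**Figure D2:**
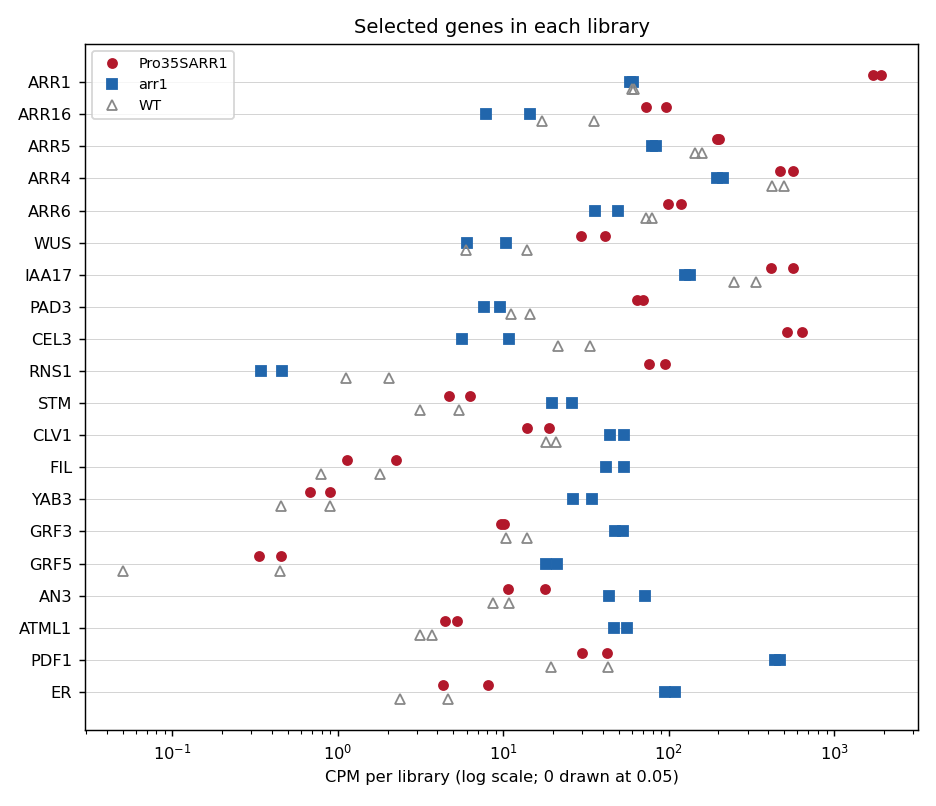
CPM of 20 genes in every library on a log axis, with red circles for the 2 Pro35SARR1 libraries, blue squares for the 2 labelled arr1 and open grey triangles for the 2 WT libraries; a library at 0 is drawn at 0.05. In each of the 20 genes the red and blue points do not overlap, as is so for 58.9% of all tested genes. The 20 were picked from called list members, so this separation follows largely from how they were picked. For STM, FIL, YAB3, the GRF genes, ATML1 and ER the WT triangles lie beside the red points.

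Shoot epidermis and stomatal genes were lower in Pro35SARR1. Of 20 tested genes of shoot epidermis and cuticle, 11 fell and 2 rose, with a median log2 fold change of −1.41. ATML1, the homeobox factor of epidermal identity, had 4.44 and 5.25 CPM in the Pro35SARR1 libraries and 46.9 and 56.1 CPM in those labelled arr1 (log2 fold change −3.41 with SE 0.143, adjusted p = 0.00061). PDF1, an epidermal protein and a classic target of ATML1, had 29.9 and 42.2 CPM in Pro35SARR1, against 438 and 472 CPM in the libraries labelled arr1 (log2 fold change −3.69 with SE 0.237, adjusted p = 0.00124). The enzyme genes DCR (log2 fold change −2.53 with SE 0.113, adjusted p = 0.000622), LACS1 (log2 fold change −2.03, adjusted p = 0.000972) and FDH (log2 fold change −1.94, adjusted p = 0.00199) of cuticle formation fell as well. PDF2, the close relative of ATML1, had 0 and 2.68 CPM in the Pro35SARR1 libraries and 43.2 and 33.5 CPM in those labelled arr1 (log2 fold change −4.81, adjusted p = 0.0126), and its reads may be shared with ATML1. The cutin acyltransferase GPAT6 (log2 fold change 1.51, adjusted p = 0.00151) and the wax gene CER1 (log2 fold change 1.87, adjusted p = 0.0353) rose. Summed over the 4 shoot epidermis markers ATML1, PDF1, FDH and CER6, the level was 143 and 121 CPM in Pro35SARR1, 692 and 728 CPM in those labelled arr1 and 112 and 98.2 CPM in WT, and CER6 itself was at a log2 fold change of 0.01. In bulk tissue, fewer cells of a type and less RNA per cell cannot be told apart, and the part of cell makeup in the results, here and beside the other marker sums, was not tested. The 13 calls numbered 9 without Pro35SARR1 replicate 1, 10 without its replicate 2, 12 without arr1 replicate 1, 12 without its replicate 2 and 10 without the block.

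Of 8 tested genes of the stomatal lineage 7 fell, with a median log2 fold change of −2.83. The receptor kinase ER, which also shapes stem and leaf growth, had 4.33 and 8.04 CPM in Pro35SARR1, against 109 and 95.3 CPM in the libraries labelled arr1 (log2 fold change −4.06 with SE 0.283, adjusted p = 0.0015). Its relative ERL2 had 4.89 and 7.82 CPM in the Pro35SARR1 libraries and 61.6 and 60.1 CPM in those labelled arr1 (log2 fold change −3.27 with SE 0.196, adjusted p = 0.00112). TMM, their coreceptor, fell (log2 fold change −2.60, adjusted p = 0.0117), and so did ERL1, EPF2, POLAR and SPCH. SPCH, the factor that starts the lineage, stood at 0.683 and 1.12 CPM in the Pro35SARR1 libraries and 3.79 and 3.98 CPM in those labelled arr1 (log2 fold change −2.09, adjusted p = 0.0469). MUTE and FAMA, the later factors, were listed at 0 in both Pro35SARR1 libraries, and neither passed the filter for testing. FAMA had 0.574 and 1.82 CPM in the libraries labelled arr1. MUTE had 0 and 0.114 CPM there and 0 CPM in both WT libraries, so MUTE was hardly detected in any genotype. The summed level of the 4 markers SPCH, MUTE, FAMA and TMM was 2.05 and 1.79 CPM in Pro35SARR1, 10.7 and 11.6 CPM in those labelled arr1 and 6.99 and 3.71 CPM in WT. The 7 calls numbered 2 without Pro35SARR1 replicate 1, 2 without its replicate 2, 4 without arr1 replicate 1, 3 without its replicate 2 and 4 without the block.

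Some photosynthesis genes fell, by small amounts. Of 42 genes of light harvesting and the photosystems 9 fell and 0 rose, and 40 had a log2 fold change under 0, with a median of −0.29. LHCA2, an antenna protein of photosystem I, had 157 and 198 CPM in the Pro35SARR1 libraries and 274 and 280.1 CPM in those labelled arr1 (log2 fold change −0.65 with SE 0.0963, adjusted p = 0.00952). LHCB4.1, a minor antenna protein of photosystem II, had 329 and 459 CPM in Pro35SARR1, against 540.3 and 598 CPM in the libraries labelled arr1 (log2 fold change −0.55 with SE 0.1002, adjusted p = 0.0174). None of the 9 was called without the block, and without 1 library they numbered 0 without Pro35SARR1 replicate 1, 0 without Pro35SARR1 replicate 2, 4 without arr1 replicate 1, 8 without arr1 replicate 2 and 5 without either WT library. With the 4 libraries alone 5 fell and 1 rose, and with totals alone as the scale 19 fell. Of 23 genes of the Calvin cycle and greening 9 fell and 0 rose, among them PORB, of chlorophyll synthesis (log2 fold change −0.85 with SE 0.132, adjusted p = 0.0113), the greening factors GNC (log2 fold change −1.62, adjusted p = 0.0129) and GLK2 (log2 fold change −1.30, adjusted p = 0.0158), and RBCS1A, the most abundant Rubisco small subunit gene of the list by counts (log2 fold change −0.44 with SE 0.0771, adjusted p = 0.0153). The near-identical RBCS genes may share reads. These 9 calls numbered 0 without Pro35SARR1 replicate 1, 0 without its replicate 2, 6 without arr1 replicate 1, 6 without its replicate 2 and 2 without the block. Summed over RBCS1A and the other mesophyll marker in the table the level was 2090 and 3090 CPM in Pro35SARR1, 3780 and 3860 CPM in those labelled arr1 and 4050 and 5410 CPM in WT.

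IAA17 rose, and auxin synthesis and transport held more falls than rises. IAA17, a repressor of auxin response, had 414 and 564 CPM in the Pro35SARR1 libraries and 125 and 134 CPM in those labelled arr1 (log2 fold change 1.90 with SE 0.113, adjusted p = 0.00112), with WT in between at 248 and 338 CPM. Among 19 tested Aux/IAA genes it was the 1 that rose and 3 fell: IAA2, IAA8 and IAA13, none of them called without the block. The 4 Aux/IAA calls numbered 1 without Pro35SARR1 replicate 1, 1 without its replicate 2, 1 without arr1 replicate 1, 4 without its replicate 2 and 1 without the block. Of 19 genes of auxin synthesis and transport 8 fell and 1 rose, with a median log2 fold change of −0.39. The efflux carrier PIN2 had 3.07 and 3.35 CPM in Pro35SARR1, against 20.1 and 23.8 CPM in the libraries labelled arr1 (log2 fold change −2.77 with SE 0.232, adjusted p = 0.00228). The aminotransferases that open indole-3-pyruvate synthesis fell, TAR2 to 0.910 and 0.670 CPM in Pro35SARR1, against 6.43 and 8.54 CPM in the libraries labelled arr1 (log2 fold change −3.21 with SE 0.430, adjusted p = 0.00745) and TAA1 with log2 fold change −1.71 with SE 0.247, adjusted p = 0.00911. The transporter ABCB19 (log2 fold change −1.06, adjusted p = 0.00316), the carrier PIN3 and the influx carriers LAX1 and AUX1 were lower, and LAX3 was higher (log2 fold change 0.60, adjusted p = 0.0327). Those 9 calls numbered 3 without Pro35SARR1 replicate 1, 2 without its replicate 2, 7 without arr1 replicate 1, 9 without its replicate 2 and 4 without the block. Of 7 GH3 genes, which conjugate auxin to amino acids, GH3.2 (log2 fold change −2.23, adjusted p = 0.0186), GH3.3 (log2 fold change −0.61, adjusted p = 0.0227) and GH3.5 (log2 fold change −1.78, adjusted p = 0.0116) fell, all 3 not called without the block or without either Pro35SARR1 library.

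Root meristem and callus genes fell in 5 of 9 cases and rose in 1. SCR, of the stem cell niche and endodermis, had 23.3 and 19.2 CPM in the Pro35SARR1 libraries and 44.8 and 38.5 CPM in those labelled arr1 (log2 fold change −0.97 with SE 0.111, adjusted p = 0.00489). ACR4 (log2 fold change −1.26 with SE 0.171, adjusted p = 0.00762), a receptor kinase, and the root factor JKD (log2 fold change −1.44, adjusted p = 0.0257) fell, and MGP rose (log2 fold change 1.53, adjusted p = 0.0382). PLT2, of the root stem cells, had 0.114 and 0.112 CPM in the Pro35SARR1 libraries and 1.61 and 1.25 CPM in those labelled arr1, a count ratio of arr1 over Pro35SARR1 of 12.7 (95% counting interval 3.16 to 110.4). WOX5 had no counts in Pro35SARR1 and 1.84 and 0.456 CPM in the libraries labelled arr1, at least 3.39-fold lower. The 6 calls numbered 0 without Pro35SARR1 replicate 1, 0 without its replicate 2, 3 without arr1 replicate 1, 3 without its replicate 2 and 3 without the block. Of 41 cell cycle genes 2 were called, a share under the background: the D-type cyclin CYCD3;2 fell, with 58.0 and 60.4 CPM in Pro35SARR1, against 119 and 124 CPM in the libraries labelled arr1 (log2 fold change −1.03 with SE 0.0819, adjusted p = 0.002), and CYCD2;1 rose (log2 fold change 0.64, adjusted p = 0.0158), a call lost without either Pro35SARR1 library or arr1 replicate 2.

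Transcripts of several genes of camalexin and indole aldoxime synthesis were higher in Pro35SARR1. Of 13 tested genes of camalexin and indole aldoxime synthesis 7 rose and 0 fell, with a median log2 fold change of 0.80. CYP71B15, also called PAD3, which catalyses the last step to the phytoalexin camalexin, had 64.1 and 70.4 CPM in the Pro35SARR1 libraries and 9.54 and 7.63 CPM in those labelled arr1 (log2 fold change 2.98 with SE 0.171, adjusted p = 0.00108). CYP71A12, a step earlier in indole aldoxime use, had 22.4 and 23.57 CPM in Pro35SARR1, against 2.76 and 2.96 CPM in the libraries labelled arr1 (log2 fold change 3.002 with SE 0.225, adjusted p = 0.00173). CYP79B2, which makes the aldoxime from tryptophan, had 221 and 258 CPM in the Pro35SARR1 libraries and 77.8 and 106 CPM in those labelled arr1 (log2 fold change 1.39 with SE 0.109, adjusted p = 0.00196). For all 3 both Pro35SARR1 libraries exceeded both labelled arr1. WT had 184 and 276 CPM of CYP79B2, near Pro35SARR1. For CYP71B15 (14.4 and 11.1 CPM) and CYP71A12 (1.92 and 1.46 CPM) WT lay nearer the libraries labelled arr1. The 7 calls numbered 3 without Pro35SARR1 replicate 1, 4 without its replicate 2, 7 without arr1 replicate 1, 6 without its replicate 2 and 4 without the block.

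Adjacent genes of the thalianol cluster, which make a root triterpene, moved together. THAD (chromosome 5, 19434827 to 19436689) had 287 and 270.1 CPM in the Pro35SARR1 libraries and 34.6 and 29.5 CPM in those labelled arr1 (log2 fold change 3.12 with SE 0.0970, adjusted p = 0.000179). THAH (chromosome 5, 19444138 to 19447850) had 277 and 241 CPM in Pro35SARR1, against 87.9 and 76.8 CPM in the libraries labelled arr1 (log2 fold change 1.65 with SE 0.0759, adjusted p = 0.000686). THAS1 (chromosome 5, 19456960 to 19461689), the oxidosqualene cyclase of the pathway, had 178 and 132 CPM in the Pro35SARR1 libraries and 39.5 and 35.9 CPM in those labelled arr1 (log2 fold change 2.02 with SE 0.112, adjusted p = 0.00107). Each was far apart between genotypes, with WT in between. These 3 of the 4 tested members of the list rose, and all 3 kept their calls with every library left out and without the block. MRO, of the marneral pathway, was at a log2 fold change of 1.84 (adjusted p = 0.262).

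Of 21 genes of salicylate and defence 14 rose and 0 fell, with a median log2 fold change of 1.49. ICS1, which makes most of the salicylate, had 40.3 and 34.5 CPM in the Pro35SARR1 libraries and 9.30 and 8.54 CPM in those labelled arr1 (log2 fold change 2.06 with SE 0.199, adjusted p = 0.00332). The transcription factor WRKY38 had 20.6 and 15.1 CPM in Pro35SARR1, against 2.07 and 2.50 CPM in the libraries labelled arr1 (log2 fold change 2.94 with SE 0.276, adjusted p = 0.00311). Both lay well apart. NIMIN1, a regulator that binds the salicylate receptor NPR1, rose to 8.54 and 8.27 CPM in Pro35SARR1, against 0.804 and 1.14 CPM in the libraries labelled arr1 (log2 fold change 3.09 with SE 0.382, adjusted p = 0.00606). The transporter EDS5, the lipase-like proteins EDS1 and PAD4, FMO1, SARD1, PBS3, CBP60g, WRKY62 and WRKY70 also rose, by log2 fold changes between 0.68 and 4.07. PR2, a glucanase, was called higher on the pairs, with 13.7 and 46.6 CPM in the Pro35SARR1 libraries and 2.41 and 15.7 CPM in those labelled arr1 (log2 fold change 1.88, adjusted p = 0.00932), although its libraries overlapped. PR1, the classic salicylate marker, had 1.25 and 3.13 CPM in the Pro35SARR1 libraries and 0 and 0.114 CPM in those labelled arr1, a count ratio of Pro35SARR1 over arr1 of 38.5 (95% counting interval 6.51 to 1557). The 14 calls numbered 3 without Pro35SARR1 replicate 1, 3 without its replicate 2, 8 without arr1 replicate 1, 11 without its replicate 2 and 4 without the block.

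Of 25 jasmonate genes 5 rose, none of them without the block. TAT3, an aminotransferase induced by jasmonate, had 24.2 and 9.61 CPM in the Pro35SARR1 libraries and 0.460 and 0.228 CPM in those labelled arr1 (log2 fold change 5.68 with SE 0.762, adjusted p = 0.00742) and was called with each library left out. The other 4, AOS, OPR3, JAZ3 and JAZ10, were each lost without any 1 of the 4 libraries compared. Ethylene genes rose in 8 of 22 cases and fell in 3. ACS2, a synthase of the ethylene precursor ACC, had 27.0 and 33.6 CPM in Pro35SARR1, against 2.07 and 2.28 CPM in the libraries labelled arr1 (log2 fold change 3.79 with SE 0.191, adjusted p = 0.000972), and ACS7 had 53.1 and 35.3 CPM in the Pro35SARR1 libraries and 12.1 and 10.2 CPM in those labelled arr1 (log2 fold change 1.97 with SE 0.143, adjusted p = 0.00162). The oxidases ACO1 and ACO4, the receptors ERS1 and ETR2, and EBF2, which marks EIN3 for breakdown, also rose, whereas the factors ERF5, ERF6 and ERF104 fell. The 11 calls numbered 4 without Pro35SARR1 replicate 1, 4 without its replicate 2, 11 without arr1 replicate 1, 10 without its replicate 2 and 5 without the block.

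Nitrate genes rose in 10 of 19 cases and fell in 3. The root ferredoxin reductases that feed nitrite reduction rose, RFNR1 with 147 and 131 CPM in the Pro35SARR1 libraries and 70.8 and 65.9 CPM in those labelled arr1 (log2 fold change 1.02 with SE 0.0805, adjusted p = 0.00199) and RFNR2 with log2 fold change 0.68 with SE 0.0843, adjusted p = 0.00606. NIA1, NIA2 and NIR1, the nitrate and nitrite reductases, rose by log2 fold changes between 0.45 and 0.54, and the transporter NRT1.1 rose as well (log2 fold change 0.71, adjusted p = 0.0151). The BTB proteins BT1 and BT2, which restrain nitrate uptake, fell, BT1 with 21.6 and 34.6 CPM in Pro35SARR1, against 110.3 and 146 CPM in the libraries labelled arr1 (log2 fold change −2.22 with SE 0.141, adjusted p = 0.00124). The 13 calls numbered 3 without Pro35SARR1 replicate 1, 4 without its replicate 2, 11 without arr1 replicate 1, 10 without its replicate 2 and 5 without the block. Of 14 hypoxia genes 5 rose, led by the haemoglobin HB1 with 168 and 197 CPM in the Pro35SARR1 libraries and 69.6 and 79.4 CPM in those labelled arr1 (log2 fold change 1.29 with SE 0.0942, adjusted p = 0.00164). Those calls numbered 2 without Pro35SARR1 replicate 1, 2 without its replicate 2, 5 without arr1 replicate 1, 4 without its replicate 2 and 1 without the block. Of 13 iron genes 5 rose. F6'H1, of coumarin synthesis, stood at 82.9 and 59.3 CPM in Pro35SARR1, against 2.76 and 3.53 CPM in the libraries labelled arr1 (log2 fold change 4.47 with SE 0.303, adjusted p = 0.00136), and the proton pump AHA2 (log2 fold change 1.05, adjusted p = 0.00277) and the reductase FRO3 (log2 fold change 1.72, adjusted p = 0.00587) rose too. The iron calls numbered 4 without Pro35SARR1 replicate 1, 3 without its replicate 2, 5 without arr1 replicate 1, 5 without its replicate 2 and 3 without the block.

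Among sugar and cell wall genes some rose and others fell. The cell wall invertase CWINV1 had 548 and 524 CPM in the Pro35SARR1 libraries and 70.2 and 73.5 CPM in those labelled arr1 (log2 fold change 2.90 with SE 0.0903, adjusted p = 0.000179). The phloem sucrose carrier SUC2 had 1151 and 874 CPM in Pro35SARR1, against 309 and 225 CPM in the libraries labelled arr1 (log2 fold change 1.93 with SE 0.127, adjusted p = 0.00132), and the summed level of the 3 phloem markers, of which SUC2 is the largest by counts, was 1290 and 1020 CPM in Pro35SARR1, 461 and 380.0 CPM in those labelled arr1 and 1350 and 860.0 CPM in WT. Of 19 xylem and phloem genes SUC2 was the only call. SUC2 made up most of the phloem sum, so that sum gives no evidence of a rise in the other phloem markers. In the sugar list 5 of 18 rose and 3 fell. Those that fell were the sugar carriers SWEET1, SWEET16 and SWEET17. The calls of the list numbered 2 without Pro35SARR1 replicate 1, 2 without its replicate 2, 5 without arr1 replicate 1, 6 without its replicate 2 and 4 without the block. The cellulase CEL3 had 517 and 641 CPM in the Pro35SARR1 libraries and 5.63 and 10.8 CPM in those labelled arr1 (log2 fold change 6.17 with SE 0.170, adjusted p = 0.000179), while CEL2 had 0.455 and 0.670 CPM in Pro35SARR1, against 9.07 and 12.9 CPM in the libraries labelled arr1 (log2 fold change −4.25 with SE 0.365, adjusted p = 0.00242). The relatives changed in opposite directions, each with its libraries apart. The expansin EXPA8 rose (log2 fold change 2.85 with SE 0.239, adjusted p = 0.00228). Over all 27 cellulases, expansins and xyloglucan enzymes 7 rose and 4 fell, the calls numbering 6 without Pro35SARR1 replicate 1, 4 without its replicate 2, 10 without arr1 replicate 1, 10 without its replicate 2 and 4 without the block.

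Root hair genes were higher in Pro35SARR1, though much of their spread followed the replicate number. Of 16 tested 10 rose and 0 fell, all 16 had a log2 fold change above 0, and the median was 2.2. PRP3, a root hair wall protein, had 26.2 and 97.1 CPM in the Pro35SARR1 libraries and 4.14 and 19.8 CPM in those labelled arr1 (log2 fold change 2.41 with SE 0.136, adjusted p = 0.00108). RHD2, the NADPH oxidase of hair growth, had 26.9 and 38.4 CPM in Pro35SARR1, against 8.96 and 13.0 CPM in the libraries labelled arr1 (log2 fold change 1.57 with SE 0.128, adjusted p = 0.00209). The hair regulators RHD6 (log2 fold change 2.50, adjusted p = 0.0155) and RSL4 (log2 fold change 2.31, adjusted p = 0.0174) rose as well. Replicate 2 was the higher library of PRP3 in each genotype, including WT (14.4 and 52.3 CPM), and RHD2 was the 1 member still called without the block. The summed level of the root hair markers EXPA7, EXPA18, RHD6 and COBL9 was 28.2 and 101 CPM in Pro35SARR1, 9.08 and 20.4 CPM in those labelled arr1 and 16.2 and 41.6 CPM in WT. The 10 calls numbered 9 without Pro35SARR1 replicate 1, 4 without its replicate 2, 10 without arr1 replicate 1, 8 without its replicate 2 and 1 without the block. Of 14 genes of the endodermis and suberin 5 rose and 1 fell, led by the fatty acyl reductases FAR5 and FAR4. FAR5 had 146 and 92.0 CPM in the Pro35SARR1 libraries and 49.5 and 35.8 CPM in those labelled arr1 (log2 fold change 1.47 with SE 0.0956, adjusted p = 0.00131) and FAR4 rose as well (log2 fold change 1.23, adjusted p = 0.00551); they are neighbours whose loci overlap that of RPP1 in the deposited table. The Casparian strip markers summed to 66.8 and 27.8 CPM in Pro35SARR1 and 47.7 and 45.1 CPM in those labelled arr1, with no call among them. The endodermis calls numbered 2 without Pro35SARR1 replicate 1, 2 without its replicate 2, 4 without arr1 replicate 1, 6 without its replicate 2 and 3 without the block.

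**Figure D3:**
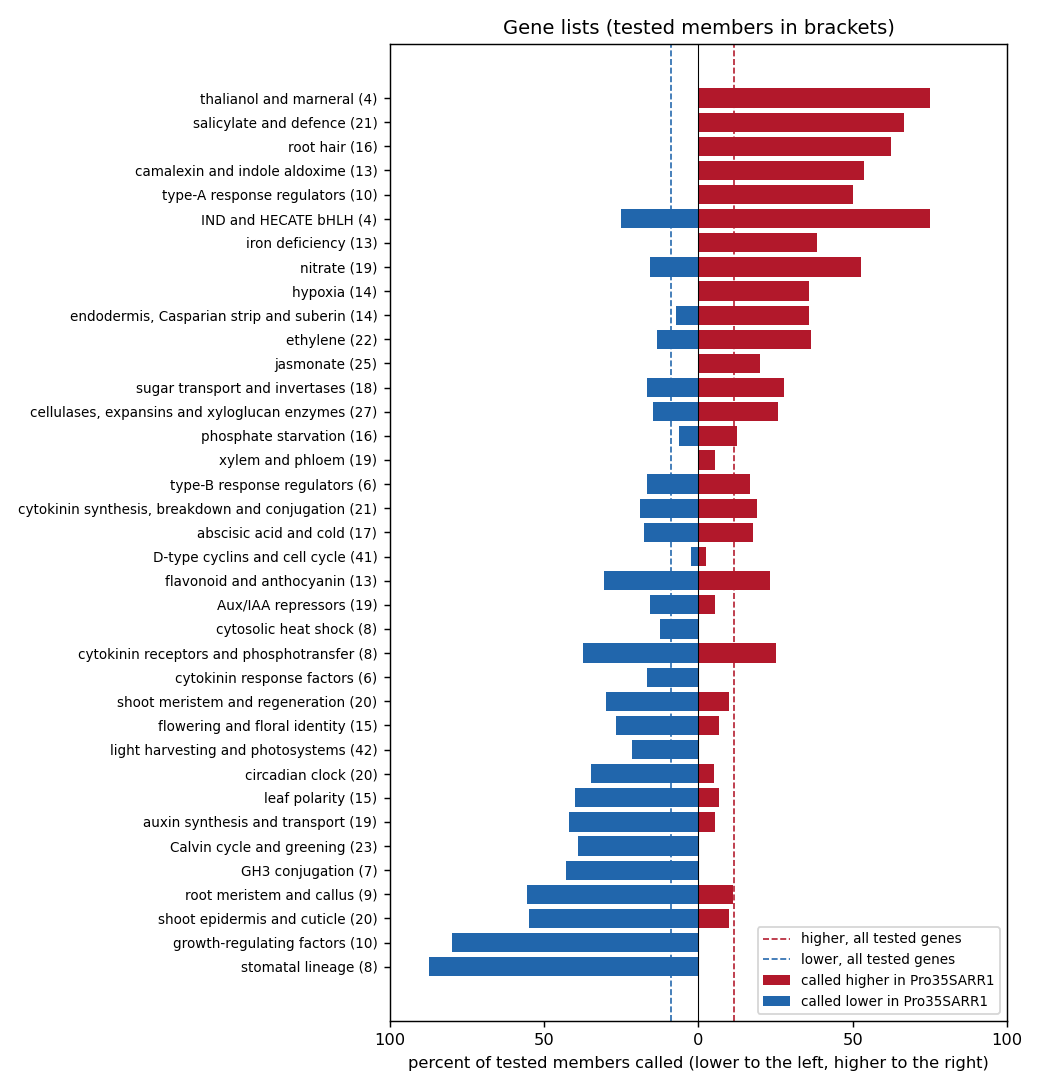
For each of the 37 gene lists, the percent of tested members called higher in Pro35SARR1 runs to the right and the percent called lower to the left, with the number of tested members in brackets. Dashed lines give the shares over all tested genes, 11.5% higher and 8.82% lower; stomatal lineage and growth-regulating factors reach farthest left, and thalianol and IND lists of 4 genes farthest right.

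**Figure D4:**
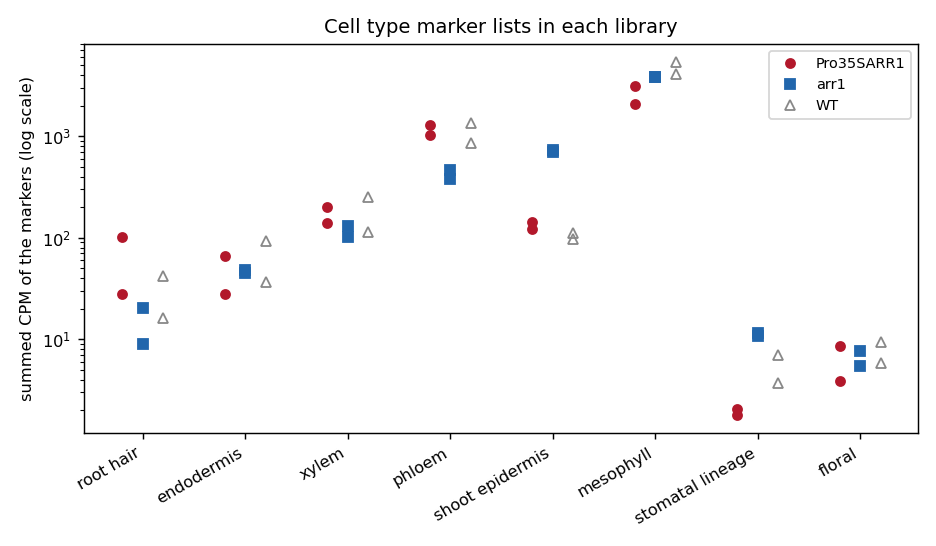
Summed CPM of each cell type marker list in every library on a log axis, with red circles for Pro35SARR1, blue squares for arr1 and open grey triangles for WT. Shoot epidermis, stomatal lineage and mesophyll sums are lower in both Pro35SARR1 libraries than in both labelled arr1. Phloem, root hair and xylem sums are higher, but the phloem sum is mostly SUC2 and no xylem marker was called. Endodermis and floral sums overlap. Among single genes, 58.9% of all tested do not overlap between the genotypes.

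The fruit-opening factor IND was nearly silent outside Pro35SARR1. IND (AT4G00120, chromosome 4, 41665 to 43197), a basic helix-loop-helix gene, had 18.7 and 29.5 CPM in the Pro35SARR1 libraries and 0.115 and 0 CPM in those labelled arr1, a count ratio of 422 (95% counting interval 75.3 to 16710), and WT had 0.113 and 0.112 CPM. Its relatives HEC1 (log2 fold change 1.85, adjusted p = 0.00606) and SPT (log2 fold change 1.13 with SE 0.0997, adjusted p = 0.00253) rose, and ALC fell (log2 fold change −1.43, adjusted p = 0.0256). ADPG1, a polygalacturonase of dehiscence zones, had 8.65 and 7.82 CPM in Pro35SARR1 and no counts in the libraries labelled arr1 or in WT, at least 24.0-fold higher (adjusted p = 0.00999). RNS1, a secreted ribonuclease induced by phosphate shortage and wounding, had 95.4 and 76.3 CPM in the Pro35SARR1 libraries and 0.460 and 0.342 CPM in those labelled arr1 (log2 fold change 7.70 with SE 0.212, adjusted p = 0.000179), but only PAP10 besides it rose among 16 phosphate starvation genes (log2 fold change 1.09, adjusted p = 0.00225), and PHO2 fell (log2 fold change −0.49, adjusted p = 0.0126). HEC1, SPT, ALC, PAP10 and PHO2 were not called without the block. HEC1, ALC, ADPG1 and PHO2 were lost without Pro35SARR1 replicate 1, all of these but HEC1 also without its replicate 2, and ALC without arr1 replicate 2. IND and RNS1 were called under each of these. ADPG1 was not called by DESeq2 (adjusted p = 0.279).

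Other large rises were in genes absent or nearly so from the libraries labelled arr1. QQS, a gene of carbon and nitrogen allocation, had 16.5 and 12.2 CPM in Pro35SARR1 and was at least 41.8-fold higher. WAK1, a wall-associated kinase, had 2.39 and 8.71 CPM there and was at least 16.2-fold higher, and the root hair gene RHS10 had 2.85 and 12.5 CPM and was at least 22.4-fold higher. MRD1 had 11.8 and 9.16 CPM and was at least 30.6-fold higher, but its locus overlaps HEI10 by 1446 bases, and the use of strand is not given. WT had 8.68 and 11.2 CPM of MRD1, near the Pro35SARR1 level. It had 4.51 and 2.47 CPM of QQS, 0 and 2.70 CPM of RHS10 and 0 CPM of WAK1 in both libraries. AT4G22050 had 46.3 and 45.7 CPM in the Pro35SARR1 libraries and 0.115 and 0.114 CPM in those labelled arr1, a count ratio of 402 (95% counting interval 111 to 3327). Its WT libraries stood at 1.80 and 1.69 CPM. AT1G03320 and AT1G24147 had count ratios of 155 (95% counting interval 27.4 to 6152) and 149 (95% counting interval 26.3 to 5919). Of the genes with the highest mean, PYK10, a glucosidase of root ER bodies, and PCK1, of gluconeogenesis, rose, PCK1 with 6394 and 6743 CPM in Pro35SARR1, against 3231 and 2558 CPM in the libraries labelled arr1 (log2 fold change 1.19 with SE 0.117, adjusted p = 0.00353) and PYK10 with log2 fold change 0.41 with SE 0.0817, adjusted p = 0.0218. WT had 7182 and 7282 CPM of PCK1, above both Pro35SARR1 libraries, and 7458 and 7537 CPM of PYK10. MT2B, a metallothionein, AT2G05510 and HOG1, of the methyl cycle, rose by log2 fold changes between 0.58 and 0.91. Without the block WAK1, RHS10, PYK10 and MT2B were not called. WAK1, PYK10, MT2B and HOG1 were lost without either Pro35SARR1 library, AT1G03320 and AT2G05510 without Pro35SARR1 replicate 1, AT1G24147 without Pro35SARR1 replicate 2 and RHS10 without arr1 replicate 2. DESeq2 did not call WAK1 or RHS10.

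At the other end were the myrosinases TGG1 and TGG2, neighbouring paralogs of glucosinolate breakdown. TGG1 had 0.569 and 0.112 CPM in the Pro35SARR1 libraries and 24.9 and 213 CPM in those labelled arr1 (log2 fold change −8.30 with SE 0.631, adjusted p = 0.00181), and TGG2 had 0 and 0.894 CPM in Pro35SARR1, against 11.3 and 112 CPM in the libraries labelled arr1 (log2 fold change −7.08 with SE 0.324, adjusted p = 0.00122). The libraries labelled arr1 differed strongly from each other in both, with replicate 2 the higher. WT lay near the Pro35SARR1 level, with 0.2255 and 0.2248 CPM of TGG1 and 0 CPM of TGG2 in both libraries. SPL8, a factor of floral organ development, had 0.114 and 0.112 CPM in the Pro35SARR1 libraries and 9.65 and 10.2 CPM in those labelled arr1, a count ratio of arr1 over Pro35SARR1 of 88.2 (95% counting interval 24.1 to 734). AT1G28410 (at least 24.0-fold lower), AT1G31310 (at least 22.5-fold lower) and AT5G18140 (at least 16.5-fold lower) had no counts in Pro35SARR1. The unannotated locus Arab_newGene_56 (chromosome 1, 28515250 to 28515917) had 0.114 and 0.112 CPM in the Pro35SARR1 libraries and 14.2 and 11.7 CPM in those labelled arr1, a ratio of 115 (95% counting interval 31.5 to 956). CYP706A3 and AT1G15330 had ratios of 94.3 (95% counting interval 16.5 to 3765) and 96.4 (95% counting interval 16.9 to 3845), and AT4G22485 fell, with 0.114 and 0.335 CPM in the Pro35SARR1 libraries and 4.37 and 35.6 CPM in those labelled arr1. Among the most abundant lower genes, TCTP, a growth regulator, had 1534 and 2138 CPM in the Pro35SARR1 libraries and 3365 and 4067 CPM in those labelled arr1 (log2 fold change −1.03 with SE 0.0974, adjusted p = 0.00311), and CCR2, DJ1A and TUB2 fell by log2 fold changes between −0.58 and −0.33. Without the block TGG2, AT5G18140, AT4G22485, AT1G15330, TCTP, CCR2, DJ1A and TUB2 were not called. AT5G18140, CYP706A3, AT1G15330, AT4G22485, CCR2, DJ1A and TUB2 were lost without either Pro35SARR1 library, and TCTP without Pro35SARR1 replicate 1. CYP706A3 was also lost without arr1 replicate 1, AT5G18140, AT4G22485 and AT1G15330 without arr1 replicate 2 and DJ1A without WT replicate 1. DESeq2 did not call AT1G28410 or AT5G18140.

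**Figure D5:**
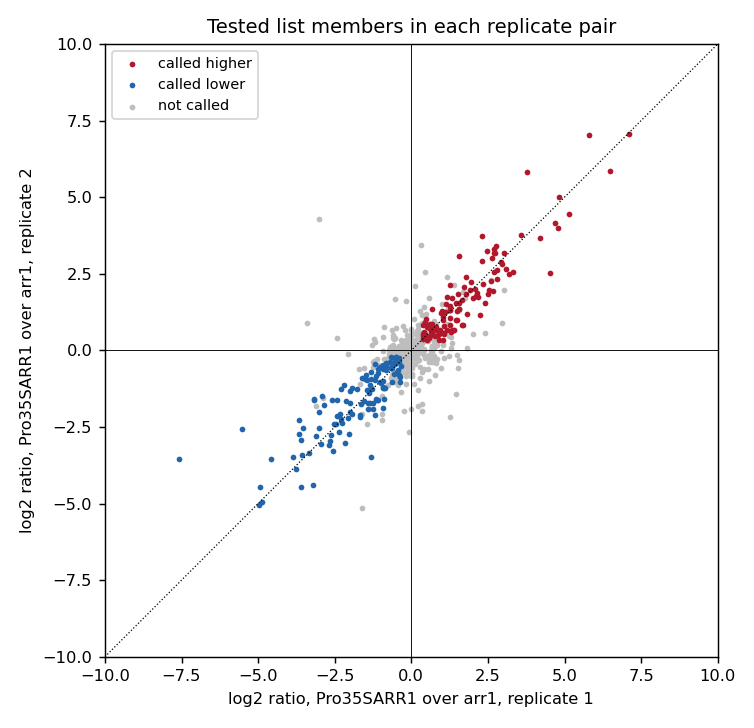
Each of 597 tested list members is placed by its log2 ratio, Pro35SARR1 over arr1, within replicate 1 on the horizontal and within replicate 2 on the vertical axis; red points were called higher, blue lower, grey not called, and the dotted line marks equal ratios. All 234 called members have the same sign in both pairs, as have 225 of the 363 not called. The calls come from a fit on these same pairs, so equal signs among called members follow largely from how they were picked.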

How the data were processed

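Total RNA of 6 root explant libraries, 2 per genotype, was sequenced on an Illumina system. Sample titles gave the groups and the replicate numbers. CASAVA and DESeq are named in the submitters' processing notes with neither version nor role. Aligner, quantifier, genome build and use of strand: not given in the sources used here. Overlapping genes and close paralogs may therefore share reads (21 of 162 named genes overlap another locus). Per the file headers, the deposited table has columns of estimated counts and of FPKM, for 35593 isoforms that belong to 26726 genes. The authors' estimated counts are scaled: 93.1% to 93.9% of values of low genes are whole multiples, within 0.02, of a library step. Coordinates are the table's own, and 97.4% of gene starts lie within 500 bases of RefSeq TAIR10.1, which gave gene symbols and promoters.

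Isoform counts were added up per gene and rounded. After filterByExpr and TMM scaling, edgeR 4.0.16 under R 4.3.3 gave the quasi-likelihood test. The fit held all 6 libraries, with the replicate number as a block and a weight of 0 for WT in the contrast. Residual degrees of freedom were 2, against 1 with the 4 libraries alone, so the SEs and p-values draw on WT. WT also entered the filter, the scaling and the replicate term, through which it can shift a fitted fold change. Benjamini-Hochberg adjusted p under 0.05 was a call. Each SE is the log2 fold change over the root of its F value. The biological coefficient of variation was 0.123, against 0.214 without the block. The procedure was tested on simulated data. Same-numbered libraries deviated together over 17752 genes (Pearson's r 0.268 between arr1 and Pro35SARR1, 0.272 between WT and arr1 and 0.473 between WT and Pro35SARR1); no label names a common batch or day, and the pairing rests on the numbers in the titles and on this check. Replicates differed beyond sampling noise (mean chi-square per gene 14.7 for Pro35SARR1, 10.6 for arr1 and 21.55 for WT).

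The comparison and the 37 gene lists (719 listed members in the table) were chosen with earlier results of these data known, and no list was tested as a set. The lists are not fully separate: EXPA7, EXPA18, ADH1, ETR2 and SUC2 are shared between lists and counted in each. Genes named are ARR1, ARR10, ARR12, ARR5, ARR7, ARR15, WUS, STM, CLV3 and IAA17; up to 4 called members per list by adjusted p; the 10 higher and 10 lower called genes of largest change whose libraries do not overlap and whose higher genotype averages 5 CPM or more; and the 5 higher and 5 lower called genes of highest mean. Further list members were named after their values were seen. Some listed genes are not reported here. Alternatives were DESeq2 1.42.0, limma 3.58.1 on log2(FPKM + 1), other scalings, no filter, no block, 4 libraries, and each library left out.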

Additional observations from a re-analysis of the deposited data

How the results depend on the processing

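The number of higher genes (2084) moved to 739 with no replicate block, to 813 with the 4 libraries alone and no replicate block, and to between 394 and 2070 with 1 library left out, the lowest values being 394 without Pro35SARR1 replicate 1 and 397 without Pro35SARR1 replicate 2. The number of lower genes (1595) moved to 431 with no replicate block, 459 with the 4 libraries alone and no block, 958 with DESeq2, 2529 with scaling by totals alone, and between 199 and 1567 with 1 library left out (235 without Pro35SARR1 replicate 1 and 199 without Pro35SARR1 replicate 2). With the 4 libraries alone and the block 1989 genes were higher and 1478 lower, of which 1854 and 1353 were also called with all 6 libraries. The ARR1 log2 fold change was called in every alternative and lay between 4.83 and 5.02 with 1 library left out. ARR15 turned to a log2 fold change of −0.01 (adjusted p = 0.992) without arr1 replicate 2 and was called at 1.13 without arr1 replicate 1; ARR7 was called at −0.45 with scaling by totals alone. Of 161 named genes tested, 63 lost their call without the block, 83 without Pro35SARR1 replicate 1, 78 without Pro35SARR1 replicate 2, 14 without arr1 replicate 1, 18 without arr1 replicate 2 and 12 with DESeq2. The cause of these losses was not tested; each library left out also removes 1 sample from a fit with 2 residual degrees of freedom. The 161 are the genes named by the stated rules, so further list members named after their values were seen are not in these tallies. Of those further members, DESeq2 did not call AHP6, LOG3, LOG5, CRN, WOX5, AUX1, CER1, PDF2, ERL1, SPCH, PBS3 and PR1, among others. It did call others, such as CKX4 and YAB2. Levels near 0.338 CPM rest on about 3 counts per library. Bounds or count ratios stand where a genotype had at most 3 counts in all; fitted folds of other genes near that level, such as RNS1, TAT3, GRF5, TGG1, YAB5 and AHP6, rest on few counts in 1 genotype.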

Other observations

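Some genes of leaf pigment, the clock and flowering rose and others fell. Of 13 tested flavonoid and anthocyanin genes 3 rose and 4 fell. CHS, the entry enzyme, had 742 and 674 CPM in the Pro35SARR1 libraries and 231 and 376 CPM in those labelled arr1 (log2 fold change 1.24 with SE 0.211, adjusted p = 0.0143), and F3H and FLS1 rose as well (log2 fold changes 0.92 and 0.80). The late anthocyanin genes DFR (log2 fold change −3.02, adjusted p = 0.0256) and LDOX (log2 fold change −2.98, adjusted p = 0.0182) fell, 5MAT had 0 and 0.112 CPM in the Pro35SARR1 libraries and 1.61 and 1.71 CPM in those labelled arr1, and the regulator EGL3 had 1.71 and 1.68 CPM in Pro35SARR1, against 16.4 and 13.1 CPM in the libraries labelled arr1 (log2 fold change −3.11 with SE 0.297, adjusted p = 0.00323). Of 20 clock genes 7 fell and 1 rose, led by RVE4 (log2 fold change −0.63, adjusted p = 0.00812) and LNK2 (log2 fold change −1.06, adjusted p = 0.0099), and of these 8 calls 2 remained without the block, 0 without Pro35SARR1 replicate 1, 0 without its replicate 2, 5 without arr1 replicate 1 and 5 without its replicate 2. Of 15 flowering genes 4 fell and 1 rose. SEP3 rose (log2 fold change 1.21 with SE 0.180, adjusted p = 0.0098), SOC1 (log2 fold change −2.23, adjusted p = 0.0132), SVP (log2 fold change −3.03, adjusted p = 0.0135) and SPL9 (log2 fold change −4.13, adjusted p = 0.0321) fell, and LFY, which specifies flowers, had 0.114 and 0.112 CPM in the Pro35SARR1 libraries and 2.41 and 2.62 CPM in those labelled arr1, a count ratio of arr1 over Pro35SARR1 of 22.3 (95% counting interval 5.82 to 190.0). The flavonoid calls numbered 1 without Pro35SARR1 replicate 1, 1 without its replicate 2, 5 without arr1 replicate 1, 4 without its replicate 2 and 6 without the block, and the flowering calls 0 without Pro35SARR1 replicate 1, 1 without its replicate 2, 3 without arr1 replicate 1, 4 without its replicate 2 and 2 without the block.

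Stress lists were mixed. Of 17 genes of abscisic acid and cold 3 rose and 3 fell, with RD22 at 50.6 and 36.3 CPM in the Pro35SARR1 libraries and 127 and 86.2 CPM in those labelled arr1 (log2 fold change −1.28, adjusted p = 0.00135) and called with every library left out but not without the block, and those calls numbered 1 without Pro35SARR1 replicate 1, 2 without its replicate 2, 6 without arr1 replicate 1, 4 without its replicate 2 and 1 without the block. Of 8 cytosolic heat shock genes HSFA7A fell (log2 fold change −1.39, adjusted p = 0.00836), a call lost without either Pro35SARR1 library. Of 19 tested chloroplast-encoded genes 3 fell and of 14 mitochondrial genes 0 were called by the edgeR test, in libraries where these transcripts made up at most 0.0530% of counts.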
